A study of Homo sapiens with 8 samples.

Results

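Protein kinase A (PKA) subunits, RGS2, the phosphodiesterases PDE4B and PDE4D and the transcription factor CREB1 were examined in colorectal cancer cells given Z325. The 10 genes were PRKACA, PRKACB, PRKAR1A, PRKAR1B, PRKAR2A, PRKAR2B, RGS2, PDE4B, PDE4D and CREB1, of 28043 genes listed for HCT116 and 63241 listed for NCI-H716. They were assembled because PRKACB and RGS2 were lower in Z325-treated HCT116 cells, so that HCT116 values below are a description and carry no test for these genes. The HCT116 table used here covers chromosomes 1 to 8 and the start of chromosome 9. It holds 8 of the 10 genes, and PRKACA on chromosome 19 and PRKAR1A on chromosome 17 have NCI-H716 values only. All 8 and all 10 passed the filter on low counts.

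Z325 is the small molecule ZINC000101867325, which the study selected by docking as a ligand of fibroblast growth factor receptors. RNA was sequenced from HCT116, an epithelial-like colon carcinoma line, and from NCI-H716, a colorectal carcinoma line with endocrine features, and the 4 groups were control HCT116, Z325-treated HCT116, control NCI-H716 and Z325-treated NCI-H716, with 2 libraries in each. About 100 cells went into each amplification reaction. The study dissolved Z325 in DMSO and set a working concentration from its viability assays, but the sources used here name no separate dose, no treatment time and no control vehicle for the RNA-seq. The study describes the libraries of a group as biological duplicates, but the sample labels do not say whether they came from separate cultures, so that the p-values measure the spread between these libraries. Fewer cells and less RNA per cell cannot be told apart in such bulk samples.

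The cAMP pathway carries signals from receptors that couple to G proteins. Adenylyl cyclases make cAMP, phosphodiesterases break it down, and in the PKA holoenzyme a pair of regulatory subunits holds a pair of catalytic subunits inactive until cAMP binds. Freed catalytic subunits phosphorylate many proteins, among them CREB1, which binds the cAMP response element in promoters. RGS2 speeds the return of G protein alpha subunits to their inactive state and also binds adenylyl cyclases.

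PRKACB and RGS2, the genes that led to the choice of the set, both lie on chromosome 1. In GRCh38, PRKACB lies at chr1:84078062-84238498 and RGS2 at chr1:192809039-192812275, both on the plus strand, and neither shares exon bases with another gene annotated by GENCODE v44. Their promoters were searched on both strands for the full cAMP response element, TGACGTCA, and for its core, TGACG or CGTCA, which the full element also contains. The stretches before the annotated starts are shown because the transcripts of both genes were lower together, and the short stretch of PRKAR1A is shown because that gene was the 1 member with the full element. Sequences are from RefSeq (GRCh38.p14), written 5′ to 3′ on the plus strand, with the core or the full element in capitals.
RGS2: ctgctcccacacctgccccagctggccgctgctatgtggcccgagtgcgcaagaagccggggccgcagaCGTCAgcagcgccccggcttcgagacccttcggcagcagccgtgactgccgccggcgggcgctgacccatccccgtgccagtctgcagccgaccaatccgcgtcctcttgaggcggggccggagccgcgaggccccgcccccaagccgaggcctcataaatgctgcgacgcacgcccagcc
PRKACB: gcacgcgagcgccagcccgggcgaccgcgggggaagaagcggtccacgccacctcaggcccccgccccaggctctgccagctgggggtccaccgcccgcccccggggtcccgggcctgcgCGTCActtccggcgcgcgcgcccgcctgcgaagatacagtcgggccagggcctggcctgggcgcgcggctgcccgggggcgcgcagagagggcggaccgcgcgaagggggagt
PRKAR1A: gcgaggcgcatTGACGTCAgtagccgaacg

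The stretch of RGS2 is chr1:192808789-192809038, with a core that ends 176 bases before the start. The stretch of PRKACB is chr1:84077829-84078061, with a core that ends 125 bases before the RefSeq start and lies inside an exon of PRKACB-DT, a long non-coding RNA read from the minus strand. The stretch of PRKAR1A is chr17:68512370-68512399, where the full element ends 41 bases before 1 of the RefSeq starts and inside an annotated exon of another PRKAR1A transcript. All 10 genes had at least 1 window of 300 bases in the table, from 250 bases before to 50 bases after a start, and they had 36 windows in all. A core was present in 11 of these 36 windows (30.6%), in at least 1 window of 7 of the 10 genes, and in 24.5% of the 34943 windows of all genes. PRKAR2B, PDE4B and CREB1 had none. The full element was present in 2 windows, both of PRKAR1A, and in 1.84% of all windows. These matches describe letters in a window, and binding of CREB1 was not measured.

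The other genes lie apart from each other in GRCh38. PDE4B is at chr1:65792514-66374579, CREB1 at chr2:207529737-207605988, PRKAR2A at chr3:48744597-48847874, PDE4D at chr5:58969038-60522120, PRKAR1B at chr7:549197-727650 and PRKAR2B at chr7:107044705-107161811. PRKAR1A is at chr17:68511780-68551319 and PRKACA at chr19:14091688-14118084. Of the merged exon bases, 7.72% in PRKAR1B (with DNAAF5 on the opposite strand), 4.34% in PRKAR1A, 3.48% in PRKAR2A, 2.09% in PRKACA, 1.39% in PDE4D and 0.486% in CREB1 are shared with another gene. In PRKAR1A and PRKACA the other gene is on the same strand, so strand cannot assign these reads. In the rest it is on the opposite strand, and reads there cannot be assigned with certainty where strand was not used. PRKACA and PRKACB are close paralogs, and how reads common to both were divided in the HCT116 counts is not given in the sources used here.

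The total counts were 13183792 to 13396225 in 3 HCT116 libraries and 3434620 in Z325 replicate 2 of HCT116, which was therefore the least precise, and 10210243 to 19738848 in NCI-H716. EPCAM, an epithelial marker, was at 1424 to 1655 CPM (counts scaled to library size) in HCT116, whereas VIL1, CDX1 and GPA33 were at 0.573 CPM or less. Only these 4 of the 9 epithelial markers were listed for HCT116. In NCI-H716, 6 of the 9 reached 1 CPM. EPCAM was at 38.6 to 50.2 CPM, KRT8 at 274 to 361 CPM and KRT18 at 270 to 334 CPM. VIL1 was at 11.6 to 24.1 CPM, CDX2 at 13.3 to 17.5 CPM and GPA33 at 0.382 to 1.84 CPM. KRT20 and CDH1 were at 0.530 CPM or less, and CDX1 at 0 in every library. The 8 endocrine markers of NCI-H716 summed to 2798 to 3240 CPM in control and 2692 to 2703 CPM after Z325. Of these, GCG (proglucagon) was at 2015 to 2541 CPM in control and 1642 to 1825 CPM after Z325, and SYP was also lower in both treated libraries, whereas CHGB (458 to 525 against 585 to 765 CPM), SCG2, INSM1 and PCSK1 were higher in both. The 6 fibroblast markers summed to 497 to 525 CPM in control and 475 to 513 CPM in Z325-treated NCI-H716. Within this sum COL3A1 was higher in both treated libraries (244 to 265 against 311 to 353 CPM) and LUM lower (226 to 277 against 117 to 199 CPM), while COL1A1 was at 0.0764 CPM or less. Their part in the results was not tested. The median log2 fold change over all tested genes was −0.03 in HCT116 and −0.01 in NCI-H716.

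In HCT116 the catalytic subunit PRKACB, RGS2 and the cAMP phosphodiesterase PDE4B were lower after Z325, by 2.76-fold, 2.65-fold and 3.31-fold. The 3 listed regulatory subunits and CREB1 had fitted log2 fold changes between −0.34 and 0.14. Both Z325 libraries were below both controls for 5 of the 8 genes, beside 29% of the 6491 genes tested, and above both for 0 of 8, beside 24.8%. Since the members were picked in this contrast, nothing is read from these counts.

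PRKACB, a catalytic subunit that phosphorylates PKA substrates, had TMM-normalised levels of 312 and 325.1 CPM in the control libraries and 122 and 109 CPM in the Z325 libraries. The groups stood far apart, and the replicates of each group lay close together. The group means of 319 ± 9.03 and 115 ± 8.95 CPM (SD, n = 2) differed by −1.46 on the log2 scale, with a standard error of 0.14. Leaving out each library in turn gave log2 fold changes of −1.56 to −1.36.

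RGS2 was measured at 368 and 407 CPM in control and at 141 and 152 CPM in Z325-treated HCT116. As for PRKACB, no treated library came near a control. The group means of 387 ± 27.5 and 146 ± 7.996 CPM (SD, n = 2) differed by −1.41 on the log2 scale, with a standard error of 0.14. Per length, RGS2 had the highest level of the 8 genes in control HCT116, 188 ± 7.07 FPKM (fragments scaled by gene length and sequencing depth), ahead of PRKACB at 47.9 ± 0.236 and PRKAR2A at 13.7 ± 3.16 (SD, n = 2). This FPKM was computed over the genes listed for HCT116.

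PDE4B and PDE4D belong to the cAMP-specific PDE4 family. PDE4B had 151 and 196 reads in the controls and 44 and 16 reads in the Z325 libraries, or 10.9, 15.0, 3.44 and 4.58 CPM in that order. Both treated libraries were below both controls, on few reads. The log2 fold change was −1.73 (standard error 0.39), and −0.77 on the scale of log2(FPKM + 1), where the pseudocount is large against FPKM values of 0.368 to 1.66. PDE4D was near the lower limit of the table, with 27 and 11 reads in the controls and 52 and 5 reads in the Z325 libraries. Its levels were 1.95 and 0.84 CPM in control and 4.07 and 1.43 CPM after Z325, so the groups overlapped. The log2 fold change of 1.05 (standard error 0.77) became 0.01 without Z325 replicate 1.

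For HCT116, 3 regulatory subunits were listed. PRKAR2A, a type II regulatory subunit, was at 102 and 77.1 CPM in control and at 71.2 and 70.2 CPM after Z325. Control replicate 1 stood above the other 3 libraries, and the log2 fold change of −0.34 (standard error 0.20) was −0.12 without it. PRKAR2B, the other type II subunit, was at 7.38 and 7.29 CPM in control and at 6.26 and 5.44 CPM after Z325, a log2 fold change of −0.31 (standard error 0.38). PRKAR1B, a type I subunit, was at 12.4 and 14.5 CPM in control and at 16.7 and 12.6 CPM after Z325, and the groups overlapped. Its log2 fold change was 0.14 (standard error 0.32).

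CREB1 was at 72.0 and 67.6 CPM in control and at 64.0 and 71.9 CPM in Z325-treated HCT116. The groups overlapped, with a log2 fold change of −0.04 (standard error 0.18).

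**Figure D1:**
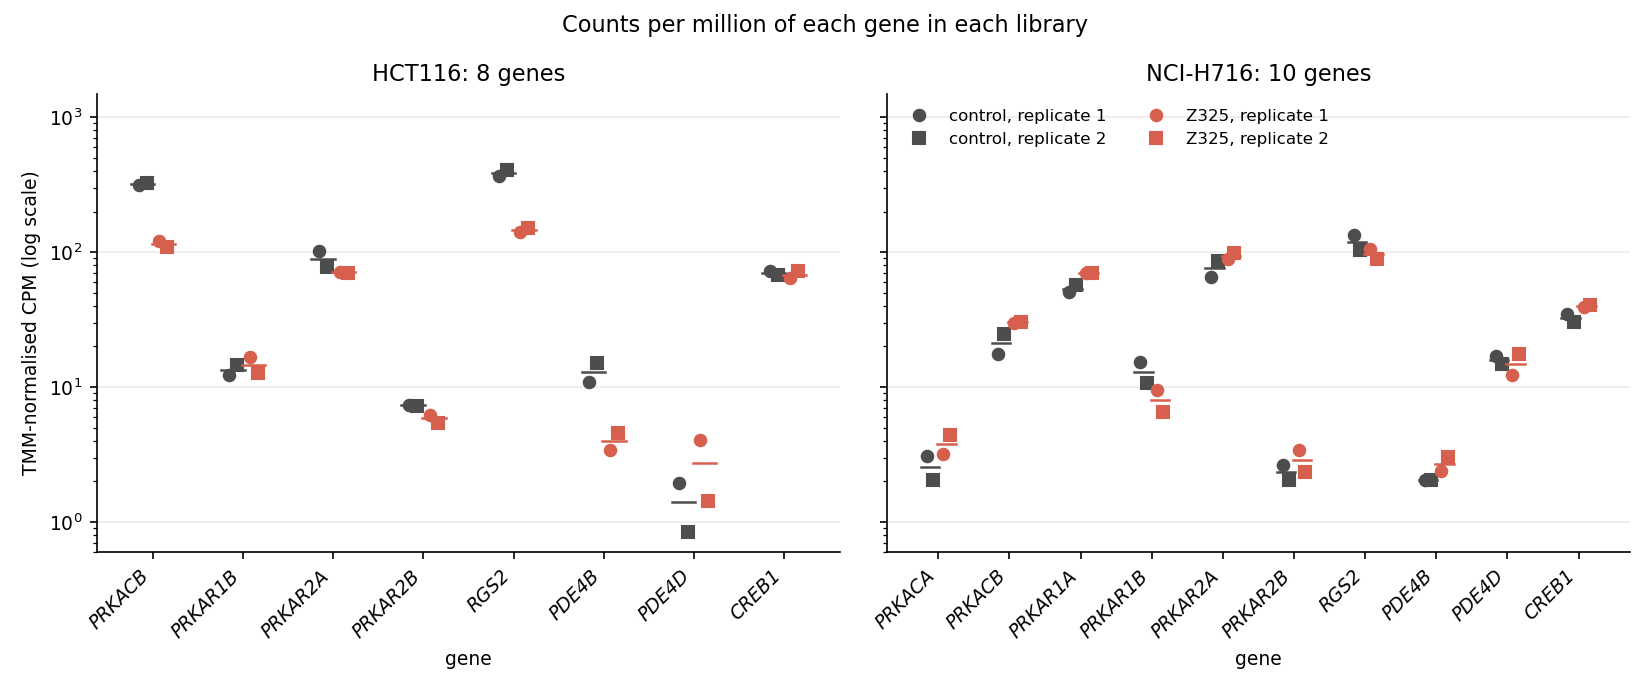
TMM-normalised CPM on a log axis for each gene in the 4 HCT116 libraries (left, 8 genes) and the 4 NCI-H716 libraries (right, 10 genes), with grey points for control, red points for Z325 and short lines for group means. PRKACB, RGS2 and PDE4B show clear gaps between grey and red points in HCT116, and in NCI-H716 the points of these genes lie closer together.

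The choice of genes names HCT116 values only, so the comparison of Z325 with control was tested in NCI-H716, although earlier results of both lines were known when the set was drawn up. None of the 10 genes passed an adjusted p under 0.05 in edgeR (0 of 10, with adjusted p from 0.276 to 0.891), beside 0.502% of the 14142 genes tested. At an unadjusted p under 0.05 there were 2 of 10, PRKACB and PRKAR1B, beside 16.9% of all genes, and DESeq2 also called 0 of 10. A replicate block, for which the labels give no basis, called 3 of the 10 beside 2397 of the 14142 genes, as described below. The fitted difference was above 0 for 7 genes and below 0 for 3, beside 6982 and 7160 of all 14142 genes tested. Both Z325 libraries were above both controls for 6 genes, beside 24.3% of all genes, and below both for 1, beside 25.1%. The median log2 fold change of the 10 genes was 0.30.

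PRKACB was at 17.6 and 24.7 CPM in control NCI-H716 and at 30.01 and 30.3 CPM after Z325. Both treated libraries lay above both controls, which is the opposite order to HCT116. The log2 fold change was 0.51 (standard error 0.22, edgeR adjusted p = 0.286). PRKACA, the other catalytic subunit, was at 3.10 and 2.04 CPM in control and at 3.21 and 4.42 CPM after Z325. Its log2 fold change was 0.57 (standard error 0.43, edgeR adjusted p = 0.538), from 21 to 88 reads per library.

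Among type I regulatory subunits, PRKAR1A was at 50.4 and 57.1 CPM in control and at 69.8 and 69.6 CPM after Z325. The treated libraries were close to each other and above both controls, with a log2 fold change of 0.37 (standard error 0.17, edgeR adjusted p = 0.303). PRKAR1B was at 15.3 and 10.7 CPM in control and at 9.54 and 6.53 CPM after Z325. It was the single gene of the 10 with both treated libraries below both controls, and its log2 fold change was −0.70 (standard error 0.30, edgeR adjusted p = 0.276).

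The type II subunit PRKAR2A was at 65.7 and 86.3 CPM in control and at 89.0 and 98.0 CPM after Z325. The log2 fold change was 0.30 (standard error 0.19, edgeR adjusted p = 0.441). PRKAR2B was at 2.65 and 2.04 CPM in control and at 3.44 and 2.36 CPM after Z325, and its groups overlapped. Its log2 fold change was 0.29 (standard error 0.47, edgeR adjusted p = 0.796).

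RGS2 was at 135 and 103 CPM in control NCI-H716 and at 105 and 89.5 CPM after Z325. Control replicate 2 lay between the treated libraries, so the groups overlapped. The log2 fold change was −0.29 (standard error 0.19, edgeR adjusted p = 0.462). It rested on 1064 to 1781 reads per library.

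PDE4B was at 2.04 CPM in both controls and at 2.37 and 3.02 CPM after Z325, from 21 to 60 reads per library. Its log2 fold change was 0.40 (standard error 0.47, edgeR adjusted p = 0.707). PDE4D was at 17.0 and 14.8 CPM in control and at 12.3 and 17.5 CPM after Z325. The treated libraries lay on either side of the controls, with a log2 fold change of −0.09 (standard error 0.25, edgeR adjusted p = 0.891). CREB1 was at 34.7 and 30.5 CPM in control and at 39.1 and 40.8 CPM after Z325, a log2 fold change of 0.29 (standard error 0.19, edgeR adjusted p = 0.458).

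**Figure D2:**
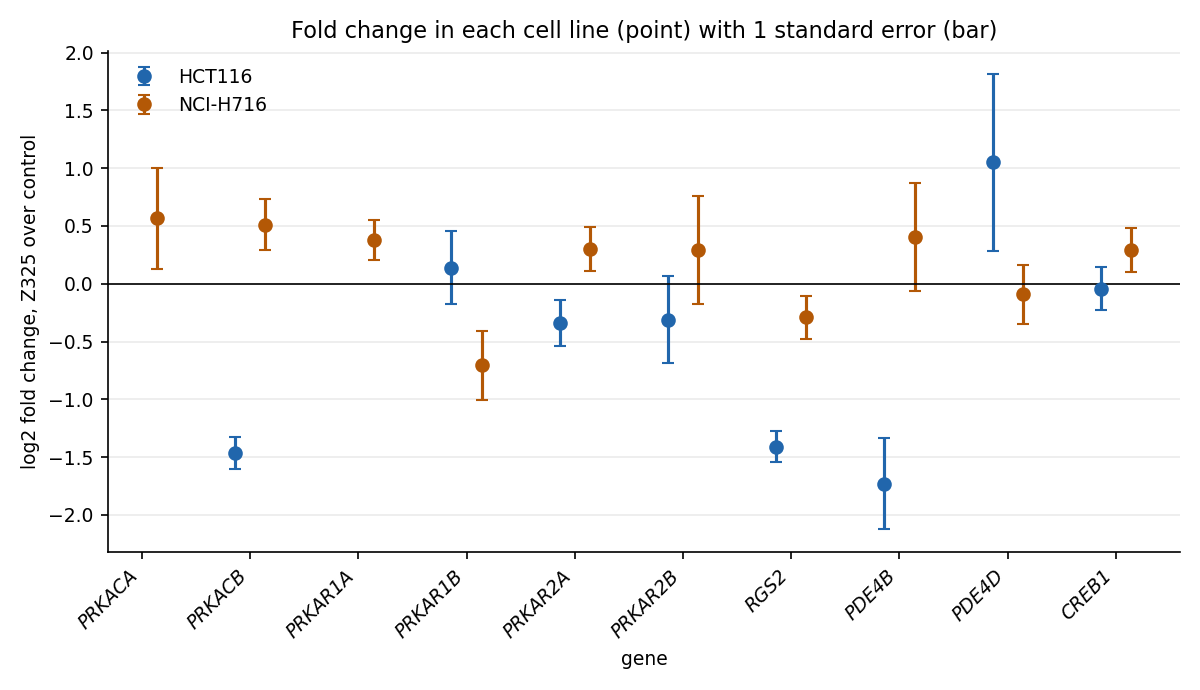
Log2 fold change of Z325 over control (points) with 1 standard error (bars) for each gene, HCT116 in blue and NCI-H716 in orange. In HCT116 PRKACB, RGS2 and PDE4B sit at −1.46, −1.41 and −1.73, and in NCI-H716 the 10 genes sit between −0.70 and 0.57.

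By CPM, PRKACB, PRKAR2A and PDE4B had both treated libraries below both controls in HCT116 and above both controls in NCI-H716. The fitted log2 fold changes were −1.46 and 0.51 for PRKACB, −0.34 and 0.30 for PRKAR2A, and −1.73 and 0.40 for PDE4B. The difference between the lines was not tested, since the HCT116 values had chosen the genes.

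The CREB1 and PDE4B values of NCI-H716 differed between scales. In the authors' tables the FPKM of CREB1 was 14.9 and 7.80 in control and 6.17 and 6.78 after Z325, lower in both treated libraries, while the CPM of the same libraries was higher in both. The transcript length that RSEM estimated for CREB1 was 2526 and 4213 bases in the controls and 6542 and 6342 bases in the Z325 libraries, and FPKM divides by that length. On log2(FPKM + 1) the difference of CREB1 was −0.66 in limma (adjusted p = 0.433, with 0.221 to 0.868 over all settings), against 0.29 on the count scale. For PDE4B the estimated length ran from 1270 to 3867 bases, its FPKM was 1.94 and 1.06 in control and 0.65 and 2.01 after Z325, and the difference on log2(FPKM + 1) was −0.14. Which transcripts of these genes were read was not tested.

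**Figure D3:**
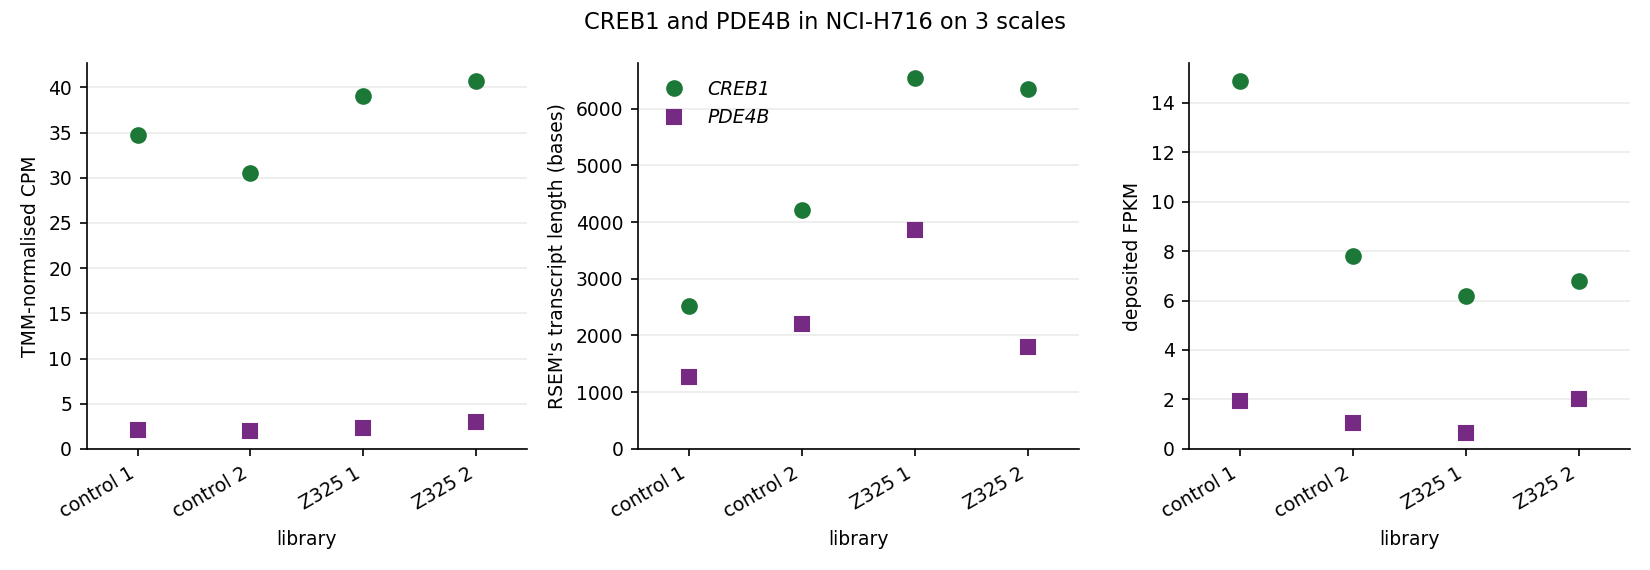
CREB1 (green) and PDE4B (purple) in the 4 NCI-H716 libraries, as TMM-normalised CPM (left), as the transcript length estimated by RSEM in bases (middle) and as deposited FPKM (right), all from 0. For CREB1 the length climbs from 2526 to 6542 bases between control replicate 1 and Z325 replicate 1 while the FPKM goes from 14.9 to 6.17 and the CPM from 34.7 to 39.1.

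Levels of the 10 genes were compared with each other per length only. In control NCI-H716, RGS2 had the highest FPKM, 108 ± 16.0, and no other of the 10 genes came near it. PRKAR2A (21.2 ± 4.94 FPKM), PRKAR1B (20.5 ± 0.827 FPKM) and PRKAR1A (17.2 ± 3.14 FPKM) followed. On FPKM the controls of PRKAR2A overlapped those of PRKAR1B and of PRKAR1A. Both PRKAR1B controls (19.9 and 21.1 FPKM) lay above both PRKAR1A controls (15.0 and 19.4 FPKM). The likeness of PRKAR1B and PRKAR2A depended on the length used. RSEM's lengths in the controls were 988 and 770 bases for PRKAR1B and 3883 and 3790 bases for PRKAR2A. With 1 length per gene (the TPM scale described below), PRKAR1B was at 20.8 ± 4.73 TPM and PRKAR2A at 91.5 ± 19.8 TPM in control. CREB1 (11.3 ± 5.01 FPKM), PDE4D (6.13 ± 1.57 FPKM) and PRKACB (5.41 ± 1.37 FPKM) came next on FPKM. This order was not kept with 1 length per gene, where the controls were at 21.5 ± 1.39, 7.90 ± 0.573 and 25.3 ± 6.60 TPM. The lower CREB1 control (7.80 FPKM) lay just above the higher PDE4D control (7.24 FPKM), and the controls of PDE4D and PRKACB overlapped. PDE4B (1.94 and 1.06 FPKM), PRKACA (1.23 ± 0.375 FPKM) and PRKAR2B (0.99 ± 0.255 FPKM) were lowest and overlapped (SD, n = 2 in each case). The catalytic subunit RNA was mostly PRKACB in this line. PRKACA made up 25.1% and 13.1% of the summed FPKM of PRKACA and PRKACB in the controls and 15.8% and 19.7% after Z325, and the groups overlapped. The exact permutation test gave p = 1, two-sided, in a design that cannot go below 0.3333, which does not show that the shares were alike.

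The shares of the regulatory subunits in NCI-H716 depended on the scale. PRKAR1B was 37.0% and 31.9% of the summed FPKM of the 4 regulatory subunits in control and 24.3% and 19.3% after Z325. PRKAR2A was 32.9% and 37.4% in control and 41.3% and 46.8% after Z325. PRKAR1A was 27.8% and 29.4% in control and 32.3% and 32.5% after Z325, and PRKAR2B stayed between 1.23% and 2.18%. On FPKM the groups did not overlap for PRKAR1A, PRKAR1B and PRKAR2A, with mean differences of 3.79, −12.7 and 8.88 percentage points. The exact permutation test gave p = 0.3333 for each, two-sided, the smallest value that 2 against 2 libraries allow, and the 4 shares add to a fixed sum, so they are not independent. On expected counts without the length correction, the difference of PRKAR1B was −4.49 points, and that of PRKAR2A was 1.54 points with overlapping groups.

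**Figure D4:**
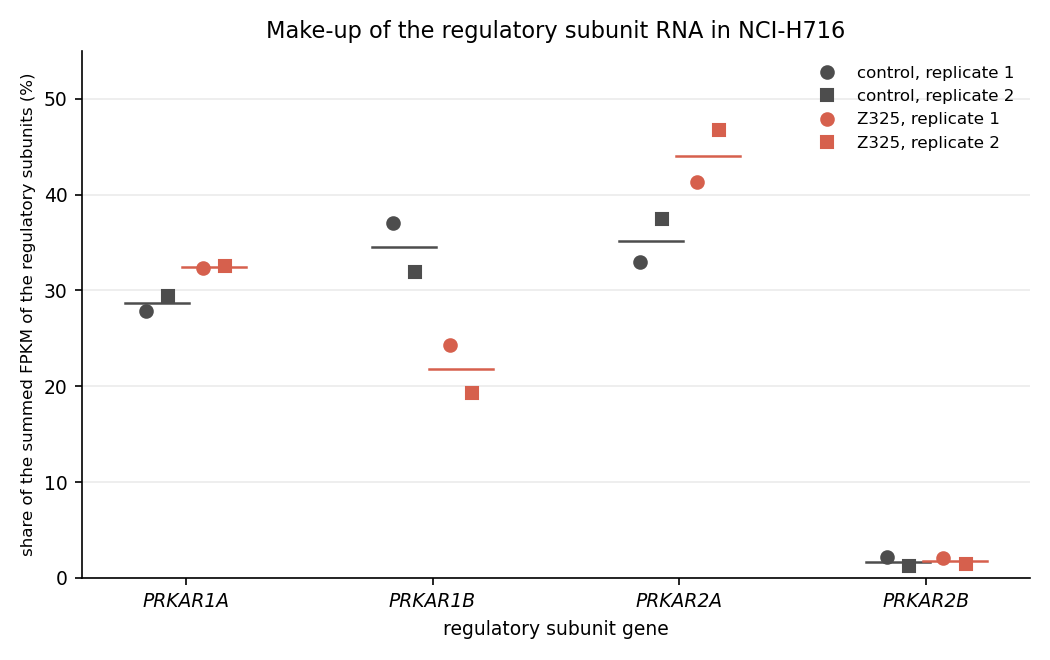
Share of each regulatory subunit gene in the summed FPKM of PRKAR1A, PRKAR1B, PRKAR2A and PRKAR2B, in percent, in the 4 NCI-H716 libraries, with grey for control, red for Z325 and short lines for group means. The mean share of PRKAR1B is 34.5% in control and 21.8% after Z325, and that of PRKAR2A 35.2% and 44.1%.

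Among the 3 regulatory subunits listed for HCT116, PRKAR2A made up 75.0% ± 4.95 of their summed FPKM in control and 71.2% ± 3.17 after Z325 (SD, n = 2 each), and PRKAR1B 15.3% ± 3.73 and 19.6% ± 2.77. Without PRKAR1A these shares cannot be set beside those of NCI-H716.

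To set the lines side by side, counts of the 28015 genes in both tables were scaled to TPM (transcript abundance relative to all transcripts counted) with 1 length per gene, and no test was made because the tables of the lines have the layouts of different counting tools. On that scale PRKACB was at 139 ± 0.501 TPM in control HCT116 and 25.3 ± 6.60 TPM in control NCI-H716, and after Z325 the values were 47.4 ± 1.25 and 36.9 ± 0.459 TPM. RGS2 was at 546 ± 21.3 and 455 ± 74.2 TPM in the controls and at 195 ± 20.6 and 384 ± 41.6 TPM after Z325. PDE4D was at 0.257 ± 0.151 TPM in control HCT116 and 7.90 ± 0.573 TPM in control NCI-H716, whereas PDE4B was at 4.26 ± 0.822 and 1.83 ± 0.0409 TPM (SD, n = 2 each). In the controls, the main PDE4 transcript of the pair was therefore PDE4B in HCT116 and PDE4D in NCI-H716. In Z325 replicate 1 of HCT116, PDE4D had more reads than PDE4B (52 against 44). It was lower only per length there, at 0.674 against 1.03 TPM.

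The other genes of the pathway were taken from 8 lists of 95 genes: adenylyl cyclases, G protein alpha subunits, other cAMP phosphodiesterases, PKA inhibitors and anchoring proteins, other cAMP-bound or PKA-like proteins, CREB relatives and coactivators, genes induced by cAMP and CREB, and other RGS proteins. In HCT116, 46 were listed and 30 tested. At an edgeR adjusted p under 0.05, 3 rose (MAP2, POPDC3 and AREG) and 1 fell (GNAI1), which is 13.3% of 30 beside 5.78% of all genes (2.83% higher and 2.94% lower). The lists were drawn up with earlier results of these data known, so no response of the pathway is read from this share. The fitted difference was above 0 for 21 of the 30, beside 3130 of all 6491 genes tested, and the median was 0.36. Of the merged exon bases of POPDC3, 36.8% are annotated for a further gene too, which leaves its reads uncertain. The same 4 genes were called by DESeq2, and 0 of 30 without control replicate 1 or without control replicate 2.

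MAP2, a microtubule protein that anchors PKA through its type II subunits, was at 6.22 and 7.21 CPM in control HCT116 and at 30.7 and 31.8 CPM after Z325. Its log2 fold change was 2.22 (standard error 0.29, edgeR adjusted p = 0.00677). POPDC3, a cAMP-binding membrane protein of the Popeye family, was at 60.8 and 70.8 CPM in control and at 164 and 148 CPM after Z325, a log2 fold change of 1.25 (standard error 0.17, edgeR adjusted p = 0.00742). AREG, which encodes the epidermal growth factor receptor ligand amphiregulin and is induced by cAMP, went from 195 and 194 CPM to 372 and 371 CPM, a log2 fold change of 0.94 (standard error 0.13, edgeR adjusted p = 0.00727). All 7 tested PKA inhibitors and anchoring proteins had a fitted difference above 0, beside 3130 of all 6491 genes tested. Of these 7, MAP2 alone passed, and AKAP12, a scaffold that holds PKA and other kinases, had a log2 fold change of 0.31 (edgeR adjusted p = 0.242).

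GNAI1, the alpha subunit of an inhibitory G protein that lowers cyclase activity, fell in HCT116, from 294 and 353 CPM to 149 and 182 CPM. Its log2 fold change was −0.97 (standard error 0.16, edgeR adjusted p = 0.0148). GNAI3 of the same family was at 801 and 926 CPM in control and at 945 and 981 CPM after Z325 (edgeR adjusted p = 0.517), and GNAI2 had a log2 fold change of −0.83 (edgeR adjusted p = 0.152). The 5 tested phosphodiesterases and the 7 tested RGS proteins had no call. RGS20 had a log2 fold change of 0.52 (edgeR adjusted p = 0.191), and RGS16 one of 0.42 (edgeR adjusted p = 0.533). DUSP1 and PER2, which are induced by cAMP in many cells, had log2 fold changes of 0.44 and −0.03 (edgeR adjusted p = 0.438 and 0.973).

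In NCI-H716, 63 of the 95 genes were tested and 0 passed an adjusted p under 0.05 in edgeR and in DESeq2. At an unadjusted p under 0.05, 3 were higher (IRS2, EP300 and RGS16) and 5 lower (AKAP1, FOS, FOSB, NR4A1 and GNAI2), that is 8 of 63 beside 7.59% and 9.27% of all genes in these directions. Neither direction exceeded its share of all genes, and these 8 were named after their values were seen. The fitted difference was above 0 for 36 and below 0 for 27, with a median of 0.07, beside 6982 and 7160 of all 14142 genes tested. GNAS, the stimulatory alpha subunit that activates cyclases, was at 1283 and 1393 CPM in control and 1570 and 1654 CPM after Z325 (log2 fold change 0.27, edgeR adjusted p = 0.403).

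Immediate-early genes that CREB can induce were among the 5. FOS was at 18.5 and 10.7 CPM in control and at 7.18 and 5.68 CPM after Z325 (log2 fold change −1.19, edgeR adjusted p = 0.1297). FOSB was at 2.88 and 3.10 CPM in control and at 1.07 and 0.804 CPM after Z325 (log2 fold change −1.68, edgeR adjusted p = 0.183). NR4A1 was at 1.44 and 1.45 CPM in control and at 0.0764 and 0.151 CPM after Z325 (log2 fold change −3.51, standard error 0.86, edgeR adjusted p = 0.118). Its treated libraries were near 0 and rest on very few reads, so the size of this fold change is uncertain. Of the 10 tested genes induced by cAMP and CREB, 6 had both treated libraries below both controls and 3 had both above, beside 25.1% and 24.3% of all genes. The 6 were FOS, FOSB, NR4A1, DUSP1, PER1 and PER2, and the 3 were IRS2, CREM and PPARGC1A. NR4A2, of the same family as NR4A1, overlapped between the groups (log2 fold change 0.65, edgeR adjusted p = 0.607). IRS2 was higher in both treated libraries, with 11.1 and 13.1 CPM in control and 18.5 and 25.0 CPM after Z325 (log2 fold change 0.85, edgeR adjusted p = 0.159).

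**Figure D5:**
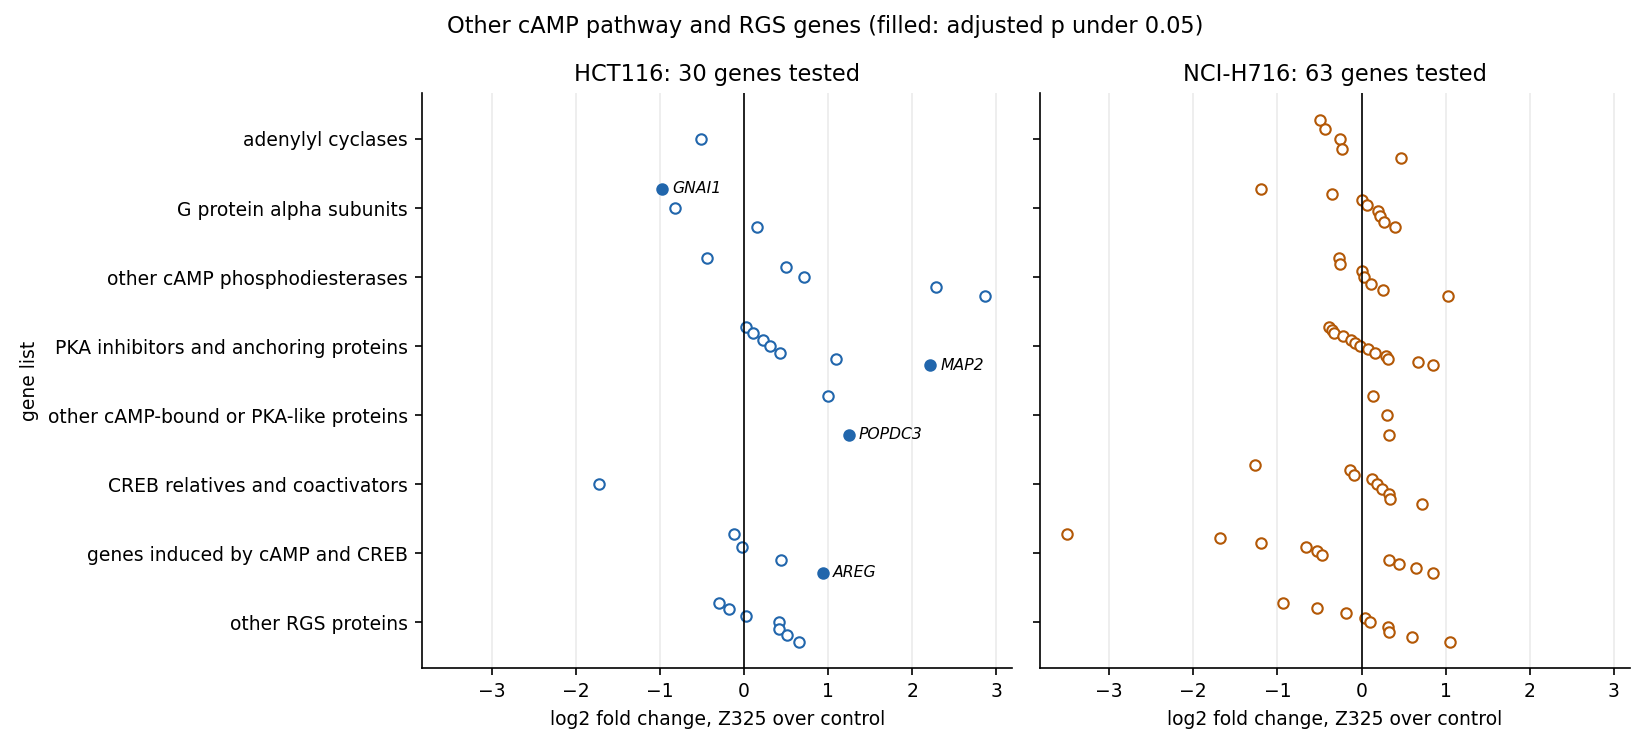
Log2 fold change of Z325 over control for each tested gene of the 8 lists in HCT116 (left, 30 genes) and NCI-H716 (right, 63 genes), 1 row of points per list, filled where the edgeR adjusted p is under 0.05. CREM belongs to 2 lists and is drawn in both. The 4 filled points are GNAI1 below 0 and MAP2, POPDC3 and AREG above 0, all in HCT116, and NCI-H716 has 0 filled points.

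The genes whose log2 CPM followed PRKACB most closely over the 8 libraries, after each line was centred on its own mean, were RAB29 (Pearson r = 0.990), CCND3 (r = 0.986) and RNASEH1 (r = 0.980), of 5014 genes compared. For RGS2 they were RPL7L1 (r = 0.983), CDKN2C (r = 0.982) and DCP1A (r = 0.982). The 8 points share libraries and the treatment contrast, and these values are a description.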

How the data were processed

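RNA-seq libraries of HCT116 and NCI-H716 cells had been made by SMART-Seq2 and sequenced as paired-end reads. According to the methods, reads were trimmed with TrimGalore, aligned to GRCh38 with STAR and quantified with RSEM. The submitters' processing notes also name hg38, Bowtie2 2.5.0 and featureCounts. For NCI-H716, the authors deposited RSEM expected counts, TPM and FPKM per gene, with estimated transcript lengths. For HCT116, the authors deposited raw read counts in the layout of featureCounts, of which chromosomes 1 to 8 and part of chromosome 9 were used here, and 4 broken lines were left out. HCT116 gene identifiers with their versions matched GENCODE v44 for 27702 of 28043 genes, and 62666 of 63241 NCI-H716 identifiers had a symbol. Libraries labelled as the test arm were taken as Z325-treated from the study's description.

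Expected counts were rounded. Each line was fitted alone in edgeR 4.0.16 (TMM, filterByExpr, quasi-likelihood test, Benjamini-Hochberg over 6491 and 14142 genes) without a replicate block. HCT116 FPKM and the TPM common to both lines were computed from the counts and the table's lengths. The members and lists were chosen with earlier results of these data known. Genes named are the 10 members, the pathway genes called in either line, and up to 3 genes per list with the highest mean CPM, and exceptions are stated. Alternatives were DESeq2 1.42.0, library size alone, other filters, limma 3.58.1 on log2 FPKM with a pseudocount of 1 or 0.1, the two-tailed t-test of the study, a replicate block, thinned counts and leaving out each library. The steps were tested on simulated data. Tables were handled with pandas 2.3.3 under Python 3.11.15, models were run in R 4.3.3 and plots were drawn with matplotlib 3.10.9.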

Additional observations from a re-analysis of the deposited data

Results flagged for a closer look

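PRKACB was lower in both Z325 libraries than in both controls in HCT116 (log2 fold change −1.46) and higher in both in NCI-H716 (0.51). PDE4B showed the same opposite order, with −1.73 in HCT116 and 0.40 in NCI-H716, on 21 to 60 reads per library in NCI-H716, where its deposited FPKM overlapped between the groups (1.94 and 1.06 against 0.65 and 2.01). PRKAR2A was at −0.34 in HCT116 and 0.30 in NCI-H716, and at −0.12 and 0.12 without control replicate 1 of the respective line. Each was singled out because, by CPM, every treated library moved one way in one line and the other way in the other line. For PRKACB the HCT116 side was known in advance, since its fall there was a reason for choosing the set. The difference between the lines was not tested, and 29% of the HCT116 genes and 24.3% of the NCI-H716 genes had both treated libraries on these respective sides of both controls.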

How the results depend on the processing

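The 28 results gave 346 combinations of a result with a setting. For counts of calls and subunit shares, 62 combinations stayed near the main count or kept the sign, 34 moved and 4 reversed. For fold changes of the members, 224 stayed the same, 9 moved, 10 reversed and 3 became stronger. The same means within the spread in HCT116, and equal sign and side of the threshold in NCI-H716. No member was called in the main NCI-H716 fit, so there it mostly means staying uncalled. In HCT116, 375 genes were called, against 759 with DESeq2, 683 without a filter, 615 with at least 10 counts in every library, 47, 37 and 35 with limma on log2 FPKM (pseudocount 1, pseudocount 0.1, and pseudocount 1 with a mean FPKM of at least 1), 0 with the t-test on FPKM, and 0 to 1094 when single libraries were left out, 0 without either control. The 4 other pathway genes called there became 2, 1 and 1 with the same limma settings (POPDC3 in each, and AREG in the first), 0 with the t-test and 0 to 5 with single libraries left out. In NCI-H716, 71 genes were called, against 364 with DESeq2, 777 without a filter, 6, 6 and 8 with limma, 2 with the t-test, 36 among the genes listed for HCT116, and 42 to 1406 with single libraries left out. Other pathway genes called in NCI-H716 were 4 without a filter (FOS, GNAI2, IRS2 and NR4A1) and 0 to 4 with single libraries left out. The causes were not tested.

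The replicate numbers are shared between control and Z325, but only 2 pairs exist per line and the labels do not say what a number stands for, so the numbers were not taken as pairs. The correlation of deviations between same-numbered libraries was −0.03 in HCT116 and 0.20 in NCI-H716. With a replicate block, NCI-H716 had 2397 calls (1061 higher and 1336 lower, against 57 and 14), 3 of the 10 members and 8 other pathway genes. The 3 members were PRKACB (log2 fold change 0.52, adjusted p = 0.0254, against 0.0254 to 0.909 over all settings), PRKAR1B (−0.69, adjusted p = 0.0413, range 0.0413 to 0.907) and PRKAR1A (0.38, adjusted p = 0.0487, range 0.0487 to 0.902). In HCT116 the block gave 177 higher and 204 lower genes, against 184 and 191.

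Signs turned for CREB1 in NCI-H716 on FPKM (−0.66, −0.73 and −0.66 with the 3 limma settings in the order above and −0.81 with the t-test, against 0.29) and for PDE4B (−0.14, −0.29, −0.14 and −0.17, against 0.40), where the estimated transcript length differed between libraries. In HCT116 PDE4B was −0.77 with limma on log2(FPKM + 1), against −1.73. With single libraries left out, the NCI-H716 log2 fold changes ran from −0.36 to 0.14 for PDE4D, 0.29 to 0.79 for PRKACB, 0.32 to 0.91 for PRKACA, −0.99 to −0.41 for PRKAR1B, 0.12 to 0.53 for PRKAR2A, 0.01 to 0.56 for PRKAR2B and −0.45 to −0.08 for RGS2, and in HCT116 from −0.11 to 0.35 for PRKAR1B, 0.01 to 1.75 for PDE4D and −0.09 to 0.03 for CREB1. The share of PRKACA among catalytic subunits differed by −7.37 to 4.68 percentage points with single libraries left out, and that of PRKAR2B among regulatory subunits by −0.44 to 0.51. Depth limits PDE4D in HCT116, with 5 to 52 reads per library, and PDE4B, PRKACA and PRKAR2B in NCI-H716, with 21 to 88. It also limits NR4A1 in NCI-H716, at 0.0764 and 0.151 CPM after Z325.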

Other observations

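PRKACB-DT, the long non-coding RNA read away from the PRKACB promoter, was looked up after the values were seen. In HCT116, where PRKACB was lower after Z325, PRKACB-DT was at 9.11 and 12.7 CPM in control and at 13.1 and 14.6 CPM after Z325 (log2 fold change 0.34, standard error 0.33, edgeR adjusted p = 0.586). In NCI-H716 it was at 9.24 and 5.82 CPM in control and at 3.44 and 4.32 CPM after Z325 (log2 fold change −0.95, standard error 0.36, edgeR adjusted p = 0.231). In both lines PRKACB-DT and PRKACB thus had fitted differences of opposite sign. A difference between their responses was not tested.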
